A study of Homo sapiens with 2 samples.

Results

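Target genes of the peroxisome proliferator-activated receptors (PPARs) that serve the burning of fatty acids were described in the human gastric cancer line NUGC4 after siRNA against ANO5 (anoctamin 5). The set was named gene by gene and holds PPARA, ACOT1, ACOT2, CPT1A, PDK4, ANGPTL4, ACADVL and EHHADH. Of these 8 genes, 7 had a value among the 14526 named genes of the series, each from 1 transcript cluster, the group of probes by which the array reads a gene. ANGPTL4 was not analysed here. The 8 genes were chosen with the differences between these arrays known, so their values are a description and carry no test. The name of the set fits its members unequally, since PPARA is the receptor itself and PDK4 and ANGPTL4 are PPAR targets that steer fuel use without being enzymes of oxidation. ACOT1 and ACOT2 split fatty acyl-CoA and do not oxidise it.

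One culture received a negative control siRNA and the other a single siRNA against ANO5, each at 20 nmol/l and added 24 h after seeding. Both were otherwise unmodified NUGC4 cells grown in serum-containing medium, and the labels do not state the time from transfection to RNA extraction. Each group is 1 array, so no difference below has a replicate check, an error or a p-value, and an effect of the ANO5 siRNA cannot be told apart from a difference between these cultures. With a single siRNA, an effect of losing ANO5 also cannot be told apart from other effects of that sequence. Because RNA came from whole cultures, a change in the number of cells with a transcript and a change in RNA per cell cannot be told apart.

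PPARs are nuclear receptors that bind fatty acids and their derivatives. They pair with a retinoid X receptor (RXR), and the pair binds DNA at a direct repeat of a short hexamer near its target genes. PPARA is best known for inducing fatty acid oxidation in the fasting liver, where it raises enzymes of mitochondria and peroxisomes together. Long fatty acids are joined to coenzyme A, carried into mitochondria on carnitine or into peroxisomes by ABC transporters, and shortened there in repeated cycles of beta-oxidation.

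To show where a PPAR element could be sought, the 250 bases before the most upstream listed start of 4 members are printed from RefSeq (GRCh38.p14), 5′ to 3′. ACOT2 and CPT1A were higher, ACADVL was lower, and PPARA encodes the receptor. Capitals mark GC boxes (GGGCGG on either strand, overlaps counted), a common motif of promoters that hold no TATA box. A single one of the 4 windows has any, but a second ACADVL window at a later start, not printed, has 2.
ACOT2 upstream window, chr14:73568809-73569058, plus strand: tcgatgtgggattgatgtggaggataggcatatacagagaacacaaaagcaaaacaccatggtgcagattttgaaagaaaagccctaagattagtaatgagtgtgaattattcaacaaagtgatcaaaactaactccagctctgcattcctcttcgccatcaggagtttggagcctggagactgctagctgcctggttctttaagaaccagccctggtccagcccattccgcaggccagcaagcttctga
CPT1A upstream window, chr11:68844278-68844527, minus strand: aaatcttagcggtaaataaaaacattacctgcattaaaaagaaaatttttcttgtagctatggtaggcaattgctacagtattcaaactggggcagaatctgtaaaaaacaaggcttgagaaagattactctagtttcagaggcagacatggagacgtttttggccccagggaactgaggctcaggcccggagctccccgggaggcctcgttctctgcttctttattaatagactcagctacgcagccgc
ACADVL upstream window, chr17:7216875-7217124, plus strand: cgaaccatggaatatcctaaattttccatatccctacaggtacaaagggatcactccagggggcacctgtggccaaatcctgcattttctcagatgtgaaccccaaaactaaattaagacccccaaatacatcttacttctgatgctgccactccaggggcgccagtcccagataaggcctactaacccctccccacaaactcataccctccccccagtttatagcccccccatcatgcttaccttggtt
PPARA upstream window, chr22:46150276-46150525, plus strand: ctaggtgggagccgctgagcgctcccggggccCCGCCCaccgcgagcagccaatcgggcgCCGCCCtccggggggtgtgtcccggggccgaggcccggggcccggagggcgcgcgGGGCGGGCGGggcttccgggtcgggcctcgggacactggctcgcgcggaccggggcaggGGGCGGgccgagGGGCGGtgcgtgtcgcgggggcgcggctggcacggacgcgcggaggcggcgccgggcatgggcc

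Windows were found for 6 of the 8 members, 9 in all, and for neither ACOT1 nor EHHADH. The 6 include ANGPTL4, which had no expression value. The PPAR hexamer AGGTCA, searched on both strands, was in 0 of these 9 windows and in 12.1% of all 35116 windows of this length. The full element, the same hexamer repeated in 1 direction with 1 base between the copies, was in 0 of the 9 and in 0.0171% of all. GC boxes were in 5 of the 9 windows and in 42.6% of all, and the printed PPARA window held 6. No match says only that these letters are not in these windows.

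Signals are given on the deposited log2 scale, and each difference is the ANO5 siRNA array minus the control array, so that 1 is a doubling. The labels' check, ANO5 itself, read 6.83 in the control and 3.67 after its siRNA, and its mean of 5.25 lies below the measured range defined next. Genes with a mean of both arrays at or above 6.05 formed the measured range of 9735 genes, and all 7 members with values were in it. Genes were counted as higher or lower from 1.5-fold (0.585 on the log2 scale), which no test supports. The gene lists below were chosen with earlier results of these data known, so their counts and medians are a description too. By this rule 23.2% of measured genes were higher and 20.1% were lower, and by 2-fold 11.2% and 11.3%, so that single calls are common on this pair of arrays. The median difference of all measured genes was 0.07. Epithelial markers had values for 7 of 7 genes, among them EPCAM (16.63 and 17.04 in the control and ANO5 siRNA arrays) and CDH1 (14.60 and 15.21), with a median of 0.31, 2 of 7 higher and 0 lower. Of 8 analysed markers of fibroblasts, blood, endothelium and liver, 3 were in the measured range (COL1A2, CD68 and VWF), at differences from -0.32 to 0.52. The fat markers ADIPOQ and PLIN1 were not analysed here.

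Of the 7 members, 3 were higher (ACOT1, ACOT2 and CPT1A), 1 was lower (ACADVL) and 3 lay within 1.5-fold (PPARA, EHHADH and PDK4). Beside the background of 23.2% higher and 20.1% lower nothing is read from these counts, since the set was chosen on this contrast. Their median difference was 0.30, with a range from -0.59 to 2.17. The members thus did not differ in a single direction. ACOT1 and ACOT2 lay far from the others, as the plot of both arrays' signals shows.

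**Figure D1:**
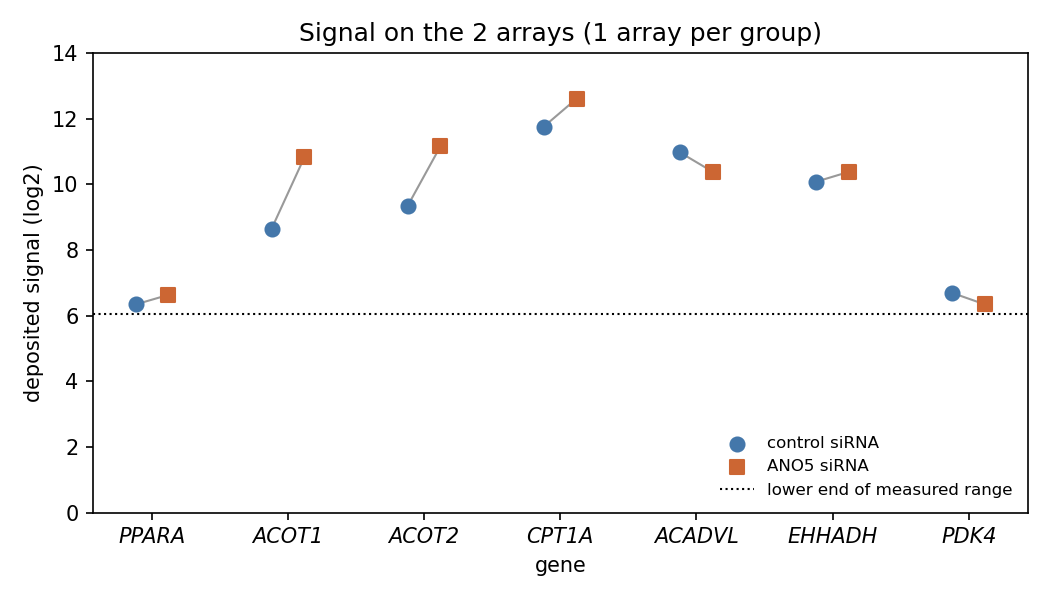
Deposited log2 signal (vertical axis) of the 7 genes with values (horizontal axis) on the control siRNA array (circles) and the ANO5 siRNA array (squares), 1 array each, joined by a grey line. The dotted line is the lower end of the measured range at 6.05. ACOT1, ACOT2 and CPT1A slope upward, ACADVL slopes downward, and PPARA and PDK4 lie close to the dotted line.

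The receptor itself was scarcely different. PPARA read 6.34 in the control and 6.63 after ANO5 siRNA, a difference of 0.29 or 1.22-fold. Its mean level lay at the 36.9th percentile of named genes, near the lower end of the measured range, where background can compress a fold. The 3 measured genes whose pair of values was nearest to it were FKBPL, RAD51D and STMN3, at distances of 0.01, 0.014 and 0.045 on the log2 scale over both arrays. In all, 81 measured genes lay within 0.2 of PPARA, so that 2 values do not single out a partner.

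Among the other receptors, PPARD, the widely expressed PPAR, was 2.75-fold higher, from 7.70 to 9.16. PPARG, the PPAR of fat cells and of some epithelia, read 12.11 and 12.31, a difference of 0.20. RXRB, a partner of all PPARs, read 10.09 and 10.10. RXRA and RXRG were not analysed here. Of the 4 measured receptor genes, PPARD was the 1 gene past 1.5-fold (25.0% higher, near the 23.2% of all measured genes), and 0 were lower. Their median was 0.24, beside 0.07 for all measured genes.

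The largest differences of the set were those of a pair of acyl-CoA thioesterases, enzymes that split fatty acyl-CoA into a free fatty acid and coenzyme A. ACOT1, the cytosolic enzyme, read 8.65 in the control and 10.82 after ANO5 siRNA. Its difference of 2.17 (4.50-fold) lay at the 98.7th percentile of measured genes. ACOT2, the mitochondrial enzyme, read 9.35 and 11.16, a difference of 1.81 (3.51-fold) at the 97.7th percentile. Both are known PPARA targets in liver. They are near-identical copies that lie side by side, so probes of each may read the transcript of the other, and the pair need not be 2 separate measurements. Their differences lay 0.36 apart.

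The neighbours did not share this difference. ACOT4, a peroxisomal thioesterase and the next gene of the same cluster, read 6.45 and 6.39, a difference of -0.06, at a low level on both arrays. ACOT6, the last of the cluster, was not analysed here. RIOX1, which shares its annotated start with ACOT1, read 8.37 and 8.33. HEATR4, whose record overlaps the whole cluster, read 5.16 and 4.65, below the measured range. RIOX1 and HEATR4 were chosen by position after their values had been seen.

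**Figure D2:**
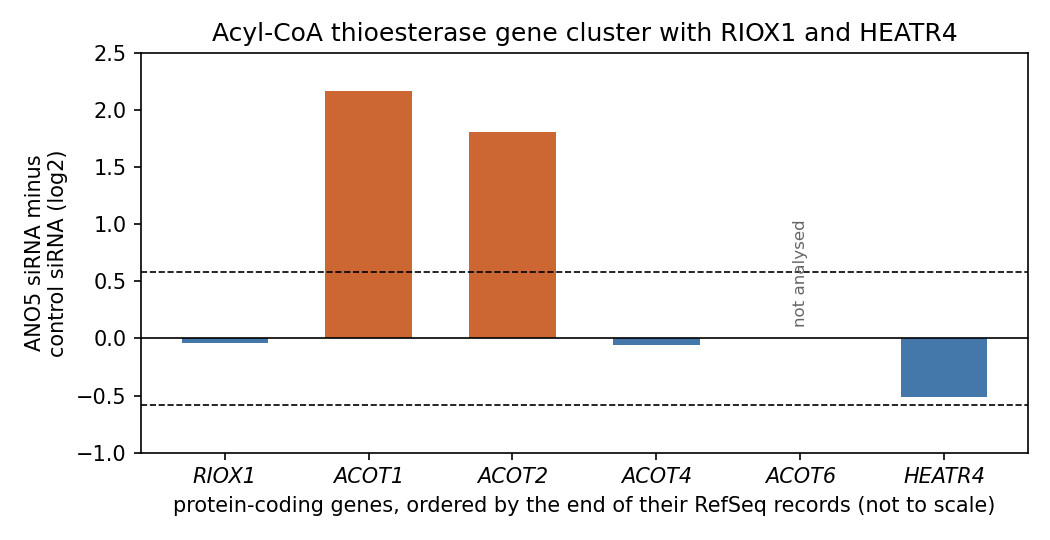
Difference between the ANO5 siRNA and control siRNA arrays (bars, log2, 1 array each) for genes at the ACOT locus, ordered by the end of their RefSeq records and not to scale. ACOT1 (2.17) and ACOT2 (1.81), in orange, reach past the dashed 1.5-fold line, whereas RIOX1 (-0.04), ACOT4 (-0.06) and HEATR4 (-0.51) lie within them.

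The family as a whole was mixed. Of 10 measured thioesterase genes, 3 were higher (ACOT1, ACOT2 and ACOT8), 1 was lower (ACOT9) and 6 lay within 1.5-fold. These are 30.0% higher and 10.0% lower, beside 23.2% and 20.1% of all measured genes. Without ACOT1 and ACOT2, which were chosen on this contrast, 1 of 8 was higher and 1 lower. ACOT8, a thioesterase of peroxisomes, was 1.12 higher on the log2 scale, from 8.76 to 9.88. ACOT9, of mitochondria, was lower, with values of 10.26 and 9.56 (-0.70). ACOT7, ACOT11, ACOT13, THEM4 and THEM5 differed by -0.18, 0.20, 0.47, 0.49 and -0.04 in this order. The median was 0.34 with ACOT1 and ACOT2 and 0.08 over the other 8 genes, close to the 0.07 of all measured genes. ACOT12 was not analysed here.

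CPT1A, the carnitine palmitoyltransferase of the outer mitochondrial membrane, sets the pace at which long fatty acids enter mitochondria. It read 11.76 in the control and 12.61 after ANO5 siRNA, a difference of 0.85 or 1.80-fold. SLC25A20 and CPT2, the later steps of this entry, lay on the same side, as did CRAT. SLC25A20, the carrier that exchanges acylcarnitine across the inner membrane, read 8.02 and 8.97 (0.95). CPT2, which returns the acyl group to coenzyme A inside, read 10.73 and 11.65 (0.92). CRAT, the carnitine acetyltransferase, read 8.43 and 10.21 (1.78, or 3.43-fold). These 4 genes were all past 1.5-fold higher, a grouping that was made after their values were seen. CROT, the carnitine octanoyltransferase of the peroxisomal list, lay on the other side, at 9.44 and 9.06 (-0.38).

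Other genes of activation and the carnitine shuttle did not follow these 4. ACSL4, an acyl-CoA synthetase that prefers polyunsaturated fatty acids, was 3.16-fold lower, from 10.52 to 8.86. SLC22A5, which takes up carnitine into the cell, was lower too, from 9.07 to 7.60 (-1.47). ACSL1 and ACSL5, other synthetases, differed by -0.18 and 0.40, and MLYCD, which breaks down the CPT1 inhibitor malonyl-CoA, by 0.55. Of the 9 measured genes of activation and the carnitine shuttle, 4 were higher (44.4%, beside 23.2% of all measured genes) and 2 lower (22.2%, beside 20.1%). At 2-fold, 1 was higher and 2 were lower. The median was 0.55 with CPT1A and 0.47 without it, and 0.18 when the genes below the measured range were kept. CPT1B, ACACB and ACSL6 lay below the measured range, and ACSL3 and CPT1C were not analysed here.

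ACADVL, the very long-chain acyl-CoA dehydrogenase that starts mitochondrial beta-oxidation, was the 1 member counted as lower. It read 10.97 and 10.38, a difference of -0.59, which lies at the 1.5-fold line. Centring the arrays on their medians gave -0.58 and a pseudocount of 16 also gave -0.58, both just inside the line, so this call is not firm.

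The mitochondrial spiral, counted here with ACADVL, had a median close to even. Of 19 measured genes, 2 were higher (10.5%, beside 23.2% of all), 4 were lower (21.1%, beside 20.1%) and 13 lay within 1.5-fold. The median was -0.09, or -0.08 without ACADVL. HADHA and HADHB, the subunits of the trifunctional protein that takes over long chains after ACADVL, read 14.35 and 14.45, and 11.82 and 11.73. ACADM, the medium-chain dehydrogenase, read 11.45 and 11.18. ACADS, which acts on short chains, was higher, from 6.32 to 7.33 (1.01), at a mean level near the lower end of the measured range (39.8th percentile). ETFA, an electron acceptor of the dehydrogenases, was higher too, from 13.02 to 13.73 (0.71). Beside ACADVL the lower genes were HSD17B10 (11.65 and 10.13), ACAD9 (12.12 and 10.82) and ECHS1 (11.74 and 10.94). ACAD9 is also an assembly factor of respiratory complex I, and HSD17B10 a subunit of mitochondrial RNase P. The other 10 measured genes, ACAA2, ACAD10, ACAD11, ACAT1, DECR1, ECI1, ECI2, ETFB, ETFDH and HADH, differed by -0.29 to 0.54. ACADL was below the measured range.

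EHHADH, the bifunctional enzyme of the peroxisome, is a classical PPARA target. It read 10.08 in the control and 10.38 after ANO5 siRNA, a difference of 0.30 or 1.23-fold. Of the 16 measured peroxisomal genes, 4 were higher (25.0%, beside 23.2% of all), 2 were lower (12.5%, beside 20.1%) and 10 lay within 1.5-fold. The higher ones were ACOX3, an oxidase of branched acyl-CoA (7.61 and 8.73), PHYH, which starts alpha-oxidation of phytanic acid (10.20 and 11.28), ABCD3, a fatty acid transporter of the peroxisomal membrane (12.86 and 13.81), and AMACR, a racemase of branched acyl-CoA (9.34 and 10.27). All 4 act on branched-chain fatty acids, a grouping that was made after their values were seen. Other measured genes of this list with a part in branched-chain oxidation lay within 1.5-fold, among them HACL1 (-0.39), SLC27A2 (-0.14) and HSD17B4 (0.49). The lower ones were ECH1 (17.05 and 16.32), an isomerase, and NUDT19 (10.00 and 9.36), which cleaves coenzyme A. HSD17B4, the other bifunctional enzyme, read 11.72 and 12.21, the thiolase ACAA1 13.80 and 13.83, and catalase (CAT) 10.45 and 10.92. SCP2 was not analysed here.

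Set side by side, the peroxisomal genes had a median difference of 0.34 and the mitochondrial genes one of -0.09, with 0.07 for all measured genes. The spread over genes was wide in both, with an SD over members of 0.60 for the peroxisomal and 0.63 for the mitochondrial list. Of the peroxisomal genes 10 of 16 lay above 0, and of the mitochondrial genes 8 of 19. Most measured genes lay above 0 as well, given their median of 0.07, so nothing is read from these counts. The groups overlap over most of their range. PPARA (0.29) lay nearer to the peroxisomal median, with no replicate to gauge these gaps. Members of a list are genes of these 2 RNA samples and not replicates, so no test of the gap was made.

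**Figure D3:**
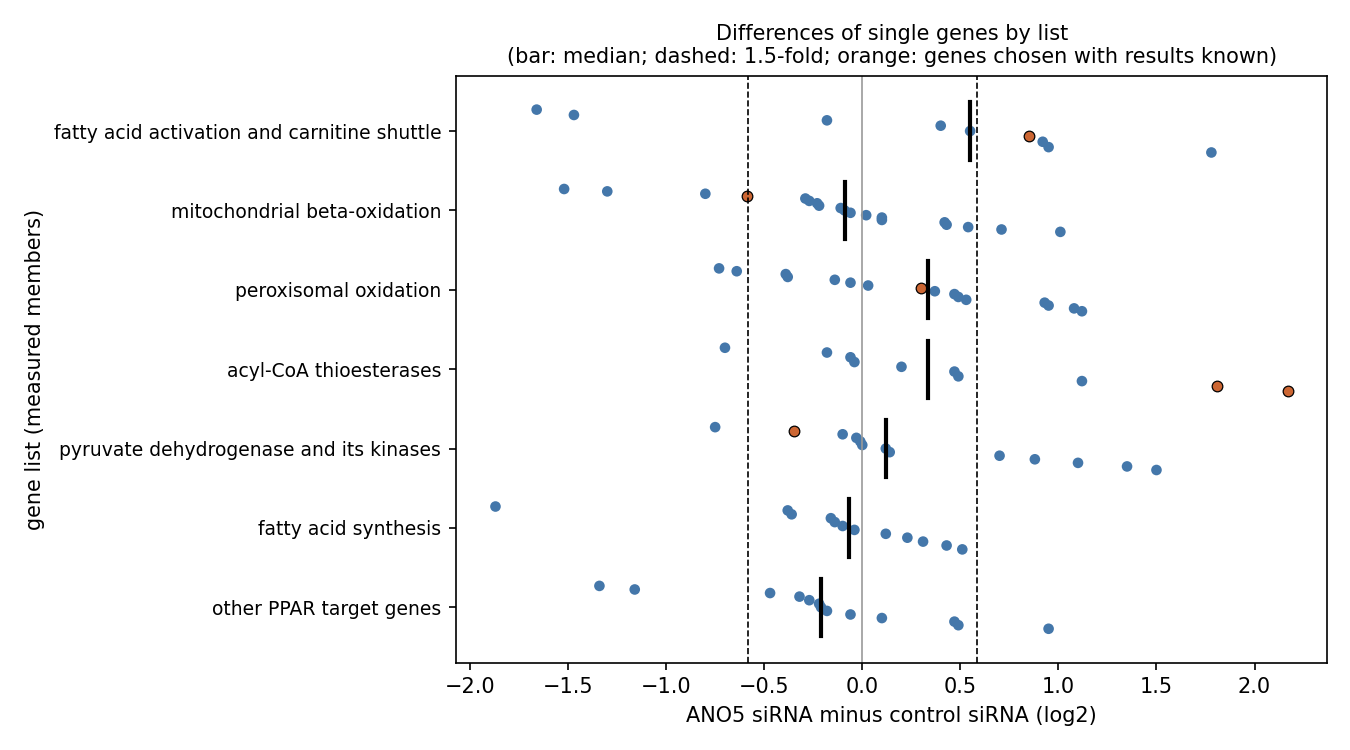
Difference between the ANO5 siRNA and control siRNA arrays (horizontal axis, log2) for each measured gene of 7 lists (rows), with the median of each list as a black bar and 1.5-fold as dashed lines. Points are spread within a row by rank, and orange marks members of the set. The 7 lists were also chosen with earlier results of these data known. The median is 0.55 for activation and the carnitine shuttle, 0.34 for peroxisomal and -0.09 for mitochondrial oxidation, and every list has genes on both sides of 0.

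PDK4, the kinase that switches off pyruvate dehydrogenase so that cells burn fat in place of glucose, read 6.69 in the control and 6.34 after ANO5 siRNA. The difference was -0.35, or 1.27-fold lower, at a mean level near the lower end of the measured range (37.2nd percentile). The nearest measured genes over both arrays were ERFE, CTXN1 and NKX6-3, at distances of 0.022, 0.03 and 0.041, and 63 genes lay within 0.2. Of the other kinases PDK1 was lower, from 12.22 to 11.47 (-0.75), and PDK2 and PDK3 differed by -0.03 and -0.01.

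Several genes of the complex that PDK4 acts on were higher. PDP1, a phosphatase that switches the complex on, read 8.56 and 10.06. PDHX, which anchors a subunit of the complex, read 10.86 and 12.21 (1.35), DLD 12.64 and 13.74 (1.10), PDHB 10.83 and 11.71 (0.88), and MPC2, a subunit of the mitochondrial pyruvate carrier, 12.36 and 13.06 (0.70). PDHA1, DLAT, MPC1 and PDPR differed by 0.12, 0.14, -0.10 and 0.00. In this list 5 of 13 genes were higher (38.5%, beside 23.2%) and 1 was lower (7.69%, beside 20.1%), with a median of 0.12 that loess on mean level turned to -0.02. DLD also serves other dehydrogenase complexes.

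ANGPTL4, a secreted inhibitor of lipoprotein lipase, had no value to report. Of its family and the lipases it acts on, 7 of 14 genes were analysed and 1 was in the measured range. That gene, LIPG, the endothelial lipase, was lower, from 9.30 to 7.91 (-1.39, or 2.62-fold). LPL read 4.89 and 4.90, below the measured range on both arrays.

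PPAR targets beyond the set showed few differences past 1.5-fold. Of 13 measured genes, 1 was higher (SLC25A20), 2 were lower and 10 lay within 1.5-fold, with a median of -0.21. This list shares genes with those above, among them SLC25A20, ACSL1, ACADM, HADHA and CAT. The shares of 7.69% higher and 15.4% lower stand beside 23.2% and 20.1% of all measured genes. CREB3L3, a liver and gut transcription factor that works with PPARA, was lower, from 10.03 to 8.69 (-1.34). G0S2, an inhibitor of triglyceride breakdown, was lower as well, from 8.97 to 7.81 (-1.16). PPAR targets of the liver such as FGF21 and APOA5 were below the measured range, and FABP1 and CYP4A11 were not analysed here.

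In fatty acid synthesis, the opposite route, 11 of 12 measured genes lay within 1.5-fold. None was higher (0%, beside 23.2% of all measured genes), 1 was lower (8.33%, beside 20.1%), and the median was -0.07. ELOVL7, an elongase, was the exception, from 8.61 to 6.74 (-1.87).

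**Figure D4:**
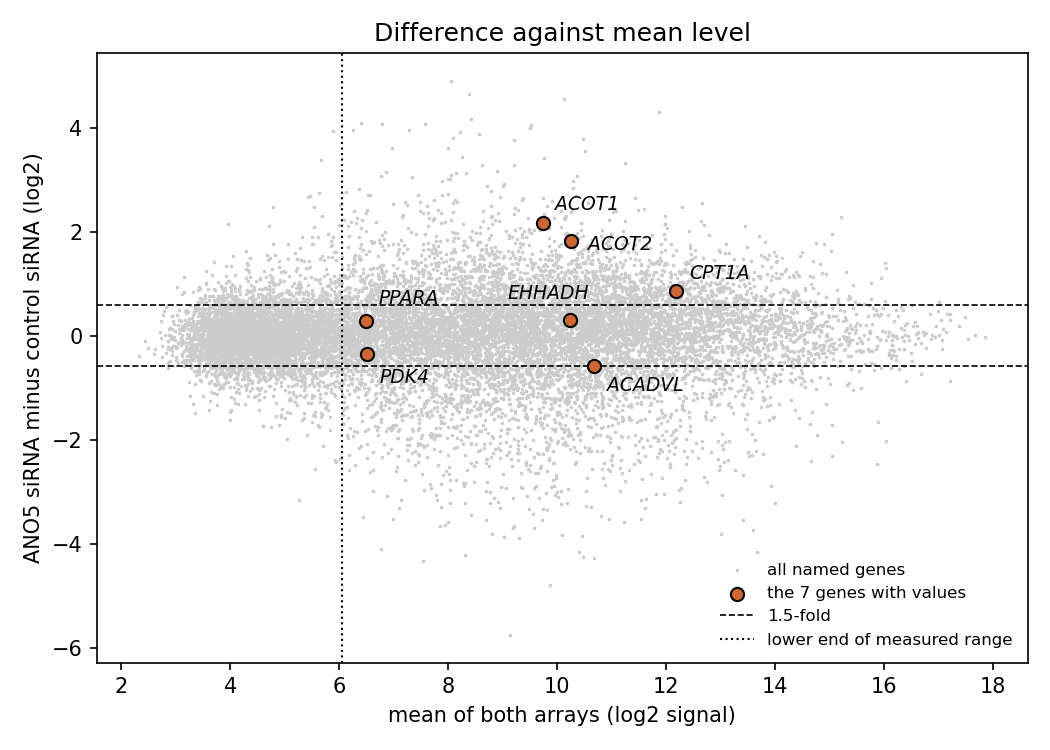
Difference between the ANO5 siRNA and control siRNA arrays (vertical axis, log2) against the mean of both arrays (horizontal axis, log2 signal) for all 14526 named genes (grey) and the 7 genes described (orange). Dashed lines are 1.5-fold and the dotted line is the lower end of the measured range. ACOT1 and ACOT2 lie in the upper part of the cloud, and PPARA, PDK4 and EHHADH lie within the dashed lines.

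The share of genes past 1.5-fold differed with level by a few percentage points, as the plot against mean level shows. When measured genes were split by mean level into 3 classes of like size, 20.2% of the lowest class, which holds PPARA and PDK4, were higher and 19.5% lower. In the middle class, which holds ACOT1, ACOT2, ACADVL and EHHADH, 25.7% and 23.2% were, and in the highest class, which holds CPT1A, 23.6% and 17.7%.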

How the data were processed

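RNA of 2 cultures was measured on 1 array each. The log2 values were used as the authors deposited them, 1 per transcript cluster and array (17345 clusters, 2.13 to 18.15). The scale was read from this range, and the sources used here give no log base, probe summary, background correction, normalization or build. Agilent Feature Extraction 12.0.3.1 is named, per the submitters' processing notes, although the platform's cluster identifiers are not of Agilent's kind, so how the values were made is uncertain. The platform's annotation named 14544 clusters and left 2801 unnamed, and all 7 members matched RefSeq by Entrez identifier. For the 16 genes with several clusters the one with the highest mean was kept. The measured range began at the 33rd percentile of mean level (6.05). Array medians were 7.69 and 7.68. Precision is limited by the number of arrays, and no detection call was used. The members and the 14 gene lists were chosen with earlier results of these data known. Genes of the receptor, oxidation, thioesterase, pyruvate dehydrogenase and lipase lists could all be named, and up to 4 each way past 1.5-fold from the others. The counting code, not the calls themselves, was checked on simulated arrays with planted differences. Alternatives were 4 scalings, the median over clusters, a pseudocount of 16, other filters and 2-fold. The scripts ran in Python 3.11.15 with numpy 2.4.6 and pandas 2.3.3.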

Additional observations from a re-analysis of the deposited data

How the results depend on the processing

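Over the scalings and the pseudocount, the difference of ACOT1 ran from 2.07 to 2.18, that of ACOT2 from 1.70 to 1.82, CPT1A from 0.71 to 0.86, ACADVL from -0.72 to -0.58, EHHADH from 0.19 to 0.31, PDK4 from -0.38 to -0.30 and PPARA from 0.25 to 0.30. None of these 7 changed sign, and ACADVL alone crossed the 1.5-fold line. Loess on mean level moved the median of mitochondrial oxidation from -0.09 to -0.23 and that of peroxisomal oxidation from 0.34 to 0.23, while the median of all measured genes moved from 0.07 to -0.01. At 2-fold, 1 mitochondrial gene was higher and 2 lower, 2 peroxisomal genes were higher and 0 lower, and 1086 of all measured genes were higher and 1104 lower, because the threshold itself changed. A stricter filter, which kept the upper 50% of genes by level, left 1 mitochondrial gene higher (ETFA), since ACADS was not kept. Leaving out the members, chosen after seeing the data, moved the thioesterase median from 0.34 to 0.08 and its count of higher genes from 3 to 1. The genes left in the lists were also chosen with earlier results known, so this is no independent check. Of the other lists, 98 of 107 medians moved by less than 0.1 and 222 of 238 counts by no more than 1.5 times. Each member has 1 cluster, so the choice of cluster could not move it. No paired analysis was possible because each group has 1 array.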

Other observations

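Coregulators of the PPARs were called at shares near or below those of all measured genes. Of 9 measured coregulators 2 were higher (22.2%, beside 23.2%) and 1 was lower (11.1%, beside 20.1%), with a median of -0.07. NCOA1 and NCOA2, histone acetyltransferase-recruiting coactivators of nuclear receptors, were higher, from 6.94 to 8.59 and from 7.92 to 9.39. PPRC1, a relative of the coactivator PGC-1, was lower, from 8.95 to 7.75. PPARGC1A and PPARGC1B, the PGC-1 coactivators themselves, were below the measured range on the mean of both arrays.

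Hypoxia-responsive genes, a group that ANGPTL4 is known to belong to, had a median of -0.43. Of 12 measured genes 4 were lower (33.3%, beside 20.1% of all measured genes) and 1 was higher (8.33%, beside 23.2%). ADM, EGLN3, P4HA1 and PDK1 were lower, at -1.63, -1.36, -0.87 and -0.75, and NDRG1 was 0.93 higher. Genes of the FOXO factors and of the glucocorticoid response, which can also raise PDK4, had a median of 0.15 over 6 measured genes. SESN1, a stress-induced inhibitor of mTORC1 signalling, read 7.17 and 9.15, FOXO4 read 6.25 and 7.17, and NR3C1, the glucocorticoid receptor, 8.37 and 7.61. PDK1 and HILPDA of the hypoxia-responsive list are also counted in lists above. A link of either list to ANGPTL4 or PDK4 was not tested.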
